A study of Oryza sativa with 12 samples.

Results

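Late embryogenesis abundant (LEA) proteins and dehydrins are the transcripts described here, as read on 12 GeneChip arrays of rice shoots and leaves. All probe sets (groups of probes that share a target transcript) were taken that the array's annotation pairs with 1 gene carrying 1 of 10 listed names as its symbol or synonym. Of the 10 names, 8 gave genes with 11 probe sets, out of 57381 probe sets on the array. These are Emp1, the dehydrin genes Dip1, RAB21, RAB16B, RAB16C, RAB16D and RAB25, and LEA19. LEA14 and LEA17 had no such probe set and were not analysed here.

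LEA proteins are very hydrophilic, largely unfolded proteins that build up in maturing seeds and in vegetative tissue that loses water, and they are thought to protect membranes and other proteins during drying and freezing. Dehydrins are a class of them marked by a lysine-rich segment, and several rice dehydrins carry the name RAB because abscisic acid, the hormone of water deficit, raises their transcripts. In leaves these genes are known as targets of abscisic acid signalling through bZIP factors and, for some, of the DREB factors that act early in the cold.

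In the ZH11 cultivar, 2 independent OsMYB30 overexpression lines (lines 2 and 28) were set beside 1 ZH11 control line. In the Huayang cultivar, 2 independent homozygous osmyb30 mutants (lines 1 and 2) were compared with 1 wild type. Each of these 6 lines gave 1 array before cold and 1 array after 6 h at 4 °C, all from seedlings at the 4-leaf stage. OsMYB30 is a MYB transcription factor. The labels do not say which promoter drives the overexpression, and the control is given as the ZH11 accession with no mention of an empty vector. Cold was given in a chamber with 14 h of light and 10 h of dark, while seedlings had grown in potting soil before. The effects of cold, of the move and of the hours passed therefore cannot be told apart. Nothing in the labels says how many plants made up a sample, so p-values measure the spread between these samples.

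Values are deposited probe set intensities, with array medians of 34.7 to 37.2. With 12 arrays in all, their number sets the precision. Differences are of log2(intensity + 16) after quantile normalization, a scale that understates changes of dim probe sets, and each is given with the standard error (SE) of the limma estimate. A probe set was called at an adjusted p (Benjamini-Hochberg over 34355 probe sets) below 0.05. Of 9 green shoot markers 8 were bright, among them RBCS at 21972.9 or more on every array, and 8 of 10 seed and embryo markers read at or below 73.9 on all arrays. That value, the highest reading among the reporter probe sets of the array other than the 2 bright ones, is used below as the limit for dim readings. One of the bright reporter probe sets read 13835.2 to 17781.9 in the mutants, 11860.8 to 12539.4 in the overexpression lines, 2658.5 and 3821.8 in the Huayang wild type, and at most 64.3 in the ZH11 control. Whether the wild type samples held RNA of the mutants was not tested.

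**Figure D1:**
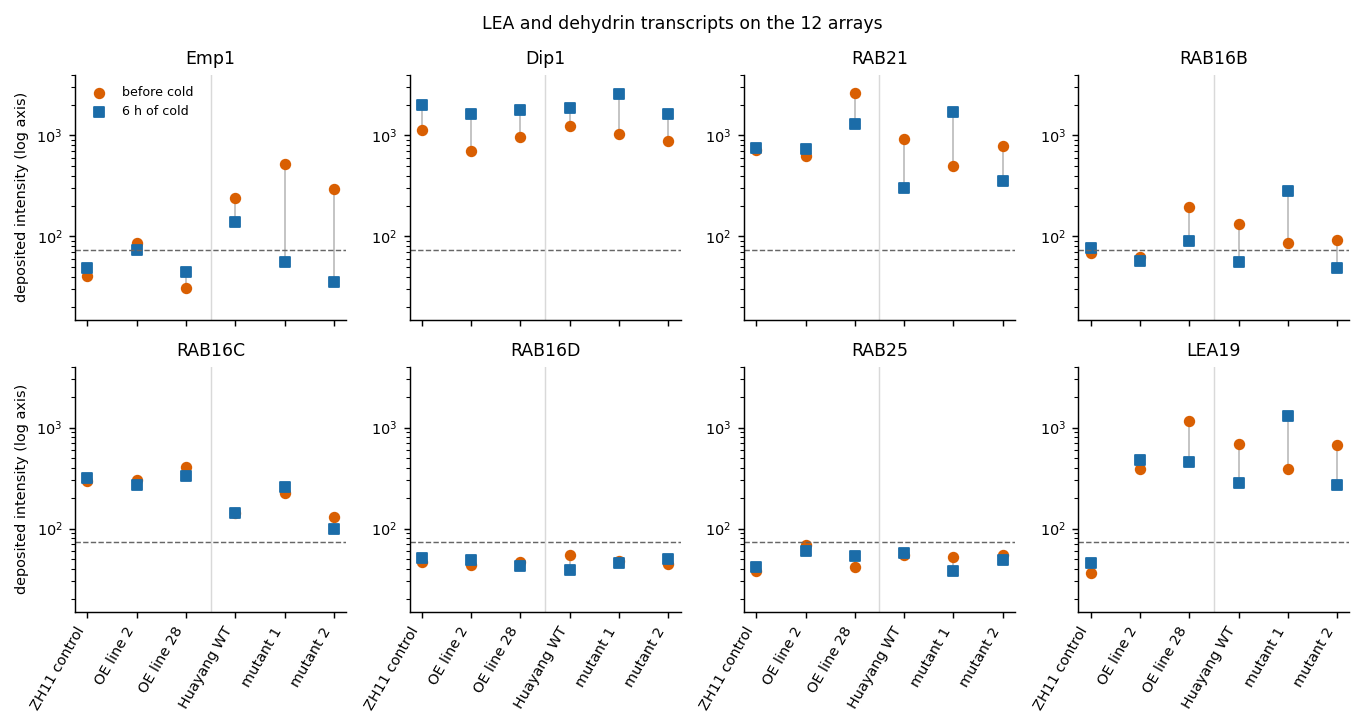
Deposited intensity (log axis) of the brightest probe set of each of the 8 genes in the 6 lines, before cold (orange circles) and after 6 h of cold (blue squares), 1 array each; the dashed line marks 73.9, the limit for dim readings. Dip1 was higher after cold in all 6 lines, LEA19 was dim in the ZH11 control alone, and Emp1 stood highest in the Huayang lines before cold.

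The first question is how the transcripts answered 6 h of cold, and 1 dehydrin gene answered in every line. Dip1 (LOC4330265, also listed as LIP9 and Dhn1) encodes a dehydrin, and its brightest probe set is given first. In the ZH11 control it read 1132.8 before cold and 1997.7 after, in overexpression line 2 it read 694.1 and 1644.1, and in line 28 it read 960.2 and 1772.3. In the Huayang wild type it read 1228.8 and 1875.5, in mutant line 1 1027.6 and 2540.1, and in mutant line 2 888.6 and 1618.7. Every array after cold thus lay above every array before cold, in both cultivars and all genotypes. Over the 6 lines Dip1 rose 1.96-fold (log2 difference 0.97, SE 0.14, adjusted p = 0.000165 in limma). The rise was 0.99 (SE 0.21, adjusted p = 0.00555) in the ZH11 lines and 0.95 (SE 0.21, adjusted p = 0.00704) in the Huayang lines. Single lines ranged from 0.63 in the wild type to 1.32 in mutant line 1. The cultivars' cold responses differed by 0.04 (SE 0.30, adjusted p = 1.00 in limma).

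Dip1 has 2 further probe sets, which did not show this rise. One read 42.4 to 68.6 and the other 15.2 to 35.6 on the 12 arrays, all within the dim range, and the dimmer lay below the level needed for testing. For the brighter of the pair the difference over all lines was -0.14 (SE 0.06, adjusted p = 0.119 in limma). With line as a block it was called lower over all lines (adjusted p = 0.0463) and in the ZH11 lines (-0.21, adjusted p = 0.0339), at a level where its size is not established. When the 3 probe sets were averaged, the Dip1 rise over all lines shrank to 0.22.

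Among the 10 member probe sets that passed the filter on low levels, 1 was called over the 6 lines (Dip1, higher), where 35.1% of all probe sets tested were called. In the ZH11 lines 1 was called (Dip1), against 20.0% of all, and in the Huayang lines 2 were called (Dip1 higher, Emp1 lower), against 19.3% of all. The median difference of the members over the 6 lines was -0.11, beside 0.01 for all probe sets. At an unadjusted p below 0.05 limma gave 2 of the 10 over the 6 lines, Dip1 and Emp1. Of all 34355 probe sets tested, 15558 passed that level.

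**Figure D2:**
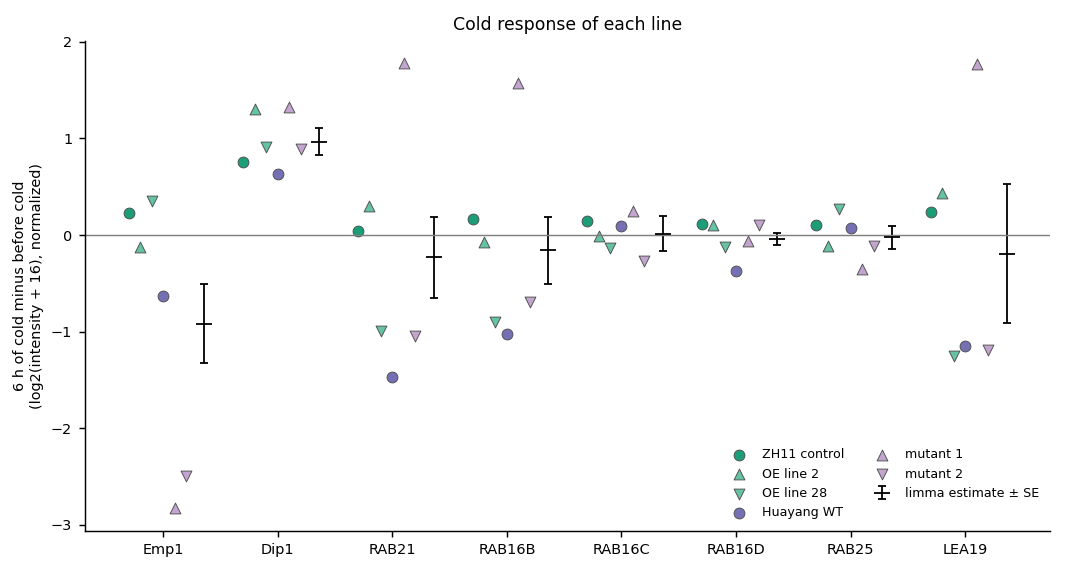
Difference between 6 h of cold and before cold in each line (normalized log2(intensity + 16), 1 symbol per line) for the brightest probe set of each gene, with the limma estimate over 6 lines and its SE as a black bar. Dip1 was above 0 in all 6 lines, Emp1 fell most in the 2 mutants, and RAB21, RAB16B and LEA19 rose in mutant line 1 and fell in mutant line 2, the wild type and overexpression line 28.

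Emp1 was the only member called lower with cold, in the Huayang lines. Emp1 (LOC4338499, also listed as EM and Osem) encodes an Em-type LEA protein, a kind first known from cereal embryos, and is read by 1 probe set. In the Huayang cultivar it read 241.9 before cold and 140.2 after in the wild type, 515.1 and 55.5 in mutant line 1, and 292.7 and 35.4 in mutant line 2. In the ZH11 cultivar it read 40.3 and 48.6 in the control, 86.7 and 73.1 in overexpression line 2, and 30.7 and 44.9 in line 28. The Huayang arrays before cold therefore stood above all others, and 7 of the 12 arrays were in the dim range. In the Huayang lines Emp1 fell with cold at least 3.04-fold when dim readings were set to 73.9 (fitted log2 difference -1.99, SE 0.41, adjusted p = 0.00460 in limma). The difference in the ZH11 lines was 0.15 (SE 0.41, adjusted p = 0.822).

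A test of the gap between these responses, ZH11 lines minus Huayang lines, gave 2.14 (SE 0.58, adjusted p = 0.513 in limma), so a cultivar difference in the cold response of Emp1 was not established. None of the 10 member probe sets was called for it by limma, where 0.102% of all probe sets were called. Among members Emp1 alone had an unadjusted p below 0.05, beside 1624 of all 34355 probe sets tested. Before cold the lines of the cultivars differed: Emp1 was at least 3.62-fold lower in the ZH11 lines (3 against 3 lines, fitted log2 difference -2.40, SE 0.41, adjusted p = 0.00407 in limma). Cultivar, transgene and mutation cannot be told apart in this comparison. Emp1 was the only called member before cold, where 5.26% of all probe sets were called. After cold the difference was -0.26 (SE 0.41, adjusted p = 0.767).

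Within Huayang, both mutants lay above the wild type for Emp1 before cold and below it after cold. Both mutants ended in the dim range, so the size of their fall is not established, while the wild type fell 1.73-fold and stayed above it. The fitted mutant effect on the cold response was -2.03 (SE 0.68, adjusted p = 1.00 in limma), with 1 wild type array at each time. After cold alone, the fitted mutant minus wild type difference was -1.46 (SE 0.48, adjusted p = 0.423), or at least 1.85-fold lower with dim readings set to 73.9.

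Of 2212 other genes with a published name, those whose levels over the 12 arrays were most like Emp1 were NAS1 (Pearson r = 0.94) and NAS2 (r = 0.93), which encode nicotianamine synthases of iron uptake. The 12 arrays share lines and cultivars, so these coefficients are a description. NAS1 read 1176.0 to 2735.8 on the 3 Huayang arrays before cold and 1815.2 in the wild type after cold, but 59.8 and 35.1 in the mutants after cold. In the ZH11 cultivar it read 8.3 to 197.0. Both genes are among the 9 root markers used as a check on the tissue. Summed over those markers, intensities were 3514.2 to 7652.3 in the Huayang lines before cold, 648.8 to 5031.7 after, and 487.2 to 1127.3 in the ZH11 lines. Of the other 7 root markers 4 were in the dim range on all arrays, which limits them as a check. Over these 7 the sums were 529.1 to 625.4 and 432.6 to 466.8 in the Huayang lines before and after cold, and 390.5 to 673.1 in the ZH11 lines. The sum of the 10 seed and embryo markers was 1199.2 to 1222.8 in the Huayang lines before cold, 1142.1 to 1178.2 after, and 926.5 to 1120.2 in the ZH11 lines. The part of other tissues in the Emp1 values was not tested, and fewer cells of a type and less RNA per cell cannot be told apart in such samples.

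The RAB16 genes form a cluster on chromosome 11. In the RefSeq assembly ASM3414082v1 the order is RAB16D, RAB16C, 2 other genes, RAB16B and RAB21. They encode closely related dehydrins, so probes of 1 gene may also bind transcripts of its neighbours, and their values may not be fully separate. In Affymetrix's naming the ending _s_at marks probes shared by several transcripts, which holds for 1 probe set of RAB21, for that of LEA19 and for the dim Dip1 probe set that was tested.

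RAB21 (LOC4350454) was the member of the cluster with the widest range. It read 720.3 before cold and 742.6 after in the ZH11 control, 630.7 and 726.7 in overexpression line 2, and 2631.0 and 1298.3 in line 28. It read 925.1 and 301.5 in the Huayang wild type, 496.0 and 1684.3 in mutant line 1, and 787.4 and 353.9 in mutant line 2. Line 28 before cold and mutant line 1 after cold were the highest arrays of their cultivars, and the groups before and after cold overlapped. RAB21 rose 3.40-fold in mutant line 1, fell 3.07-fold in the wild type, 2.22-fold in mutant line 2 and 2.03-fold in line 28, and stood at 1.15 and 1.03 times its earlier reading in line 2 and the control. The difference over the 6 lines was -0.23 (SE 0.42, adjusted p = 0.70 in limma). Its second probe set, of the shared kind, ran from 107.5 to 683.9 and followed the first over the 12 arrays (r = 0.99), with a difference of -0.08 (SE 0.37, adjusted p = 0.888).

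RAB16B (LOC4350453) had its highest readings on the same 2 arrays. It read 68.8 before cold and 76.8 after in the ZH11 control, 63.0 and 57.7 in overexpression line 2, and 196.1 and 89.3 in line 28. It read 132.7 and 56.2 in the Huayang wild type, 86.6 and 284.1 in mutant line 1, and 92.2 and 48.8 in mutant line 2. On 5 of the 12 arrays it was in the dim range, and its difference over the 6 lines was -0.16 (SE 0.35, adjusted p = 0.75 in limma). Among 45 pairs of member probe sets the 3 with an r above 0.8 over the 12 arrays were the RAB21 pair and RAB16B with each RAB21 probe set (0.82 and 0.82). The probes of these neighbours may share targets, as stated above.

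RAB16C (LOC4350452) differed between cultivars, with no called difference between times. In the ZH11 cultivar it read 292.7 before cold and 314.0 after in the control, 305.1 and 267.9 in overexpression line 2, and 402.7 and 331.6 in line 28. In Huayang it read 142.8 and 142.6 in the wild type, 227.2 and 254.9 in mutant line 1, and 131.1 and 98.6 in mutant line 2. All ZH11 arrays were above all Huayang arrays. After cold RAB16C was 1.92-fold higher in the ZH11 lines (log2 difference 0.94, SE 0.27, adjusted p = 0.0415 in limma), the only member called there, where 10.6% of all probe sets were called. Before cold the difference was 0.97 (SE 0.27, adjusted p = 0.0600), and with line as a block it passed as well (adjusted p = 0.0292). The call after cold did not hold without quantile normalization (0.91, adjusted p = 0.0522), with median centring (0.90, 0.0608) and with 8 group means (0.0896). It was also lost without the array of either overexpression line, the control, mutant line 2 or the wild type after cold, or of the wild type before cold (adjusted p 0.0563 to 0.136 in limma). Over all its alternatives the adjusted p lay between 0.00513 and 0.136. The cultivars differ in genotype, transgene and mutation at once, which cannot be told apart here. The difference with cold over the 6 lines was 0.01 (SE 0.18, adjusted p = 0.964).

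RAB16D (LOC4350451) and RAB25 (LOC4326935) were dim on all 12 arrays. RAB16D read 39.1 to 55.2 and RAB25, which also encodes a dehydrin, 37.7 to 69.0. Neither was called in any of 14 comparisons, and at these readings a difference of modest size was not detectable. For RAB16D the difference with cold over the 6 lines was -0.04 (SE 0.06, adjusted p = 0.640 in limma) and for RAB25 it was -0.02 (SE 0.12, adjusted p = 0.906).

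LEA19 (gene ID 4339480), also listed as LEA3 and OsLEA3-1, encodes a LEA protein of the LEA3 type and was the member that differed most between lines. It read 36.6 before cold and 45.2 after in the ZH11 control, 385.0 and 472.1 in overexpression line 2, and 1171.1 and 450.7 in line 28. In the Huayang cultivar it read 693.4 and 284.2 in the wild type, 386.0 and 1297.1 in mutant line 1, and 668.1 and 267.7 in mutant line 2. The control alone was in the dim range, and the readings of both overexpression lines fell among those of Huayang. With cold LEA19 went in the same direction as RAB21 in the 5 lines where it was above the dim range: it rose 3.36-fold in mutant line 1 and fell 2.44-fold in the wild type, 2.5-fold in mutant line 2 and 2.60-fold in line 28, and stood at 1.23 times its earlier reading in line 2. Over the 6 lines its difference was -0.19 (SE 0.72, adjusted p = 0.858 in limma).

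**Figure D3:**
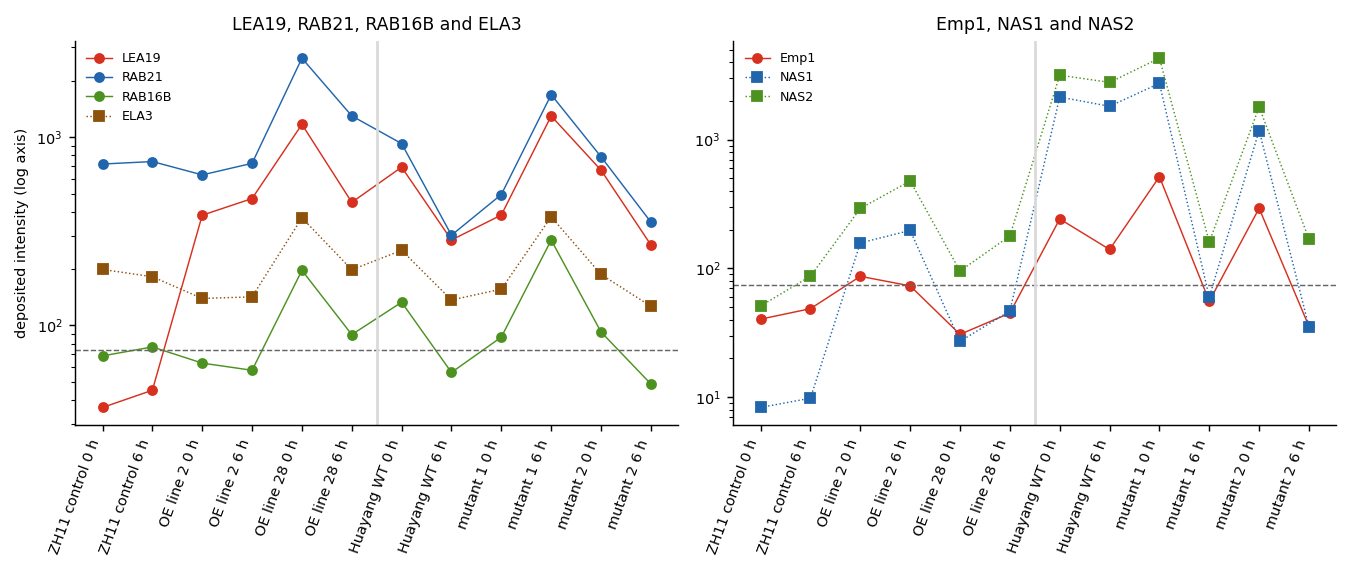
Deposited intensity (log axis) on each array, ordered by line and time, of LEA19, RAB21, RAB16B and ELA3 (left) and of Emp1, NAS1 and NAS2 (right); lines join points only to guide the eye, and the dashed line marks 73.9. LEA19, RAB21 and RAB16B all peaked in overexpression line 28 before cold and in mutant line 1 after cold, while Emp1 stood highest in the Huayang lines before cold, and NAS1 and NAS2 were high there and in the wild type after cold.

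Other named genes correlated with members over the 12 arrays, some of them over a much narrower range of readings. The one most like both RAB16B (r = 0.93) and RAB21 (r = 0.89) was ELA3, listed also as the early nodulin-like gene ENODL18. ELA3 read 373.0 in overexpression line 28 before cold and 377.5 in mutant line 1 after cold, and 126.3 to 250.5 on the other 10 arrays. The second most like RAB16B was ASMT, an N-acetylserotonin methyltransferase gene (r = 0.87), and the second most like RAB21 was ML, listed also as the salt-inducible salT (r = 0.77). For LEA19 they were the ABC transporter gene ABCG37 (r = 0.88) and PEX11-1 (r = 0.85), a peroxisome gene. Those 2 genes read 82.3 to 145.6 and 7613.0 to 9251.8, while LEA19 ran from 36.6 to 1297.1. For Dip1 they were the cyclin-dependent kinase gene CDC2Os-3 (r = 0.94) and the jasmonate repressor gene JAZ6 (r = 0.93). CDC2Os-3 read 63.1 to 125.7, in part within the dim range. For RAB16C they were the 14-3-3 protein gene GF14C (r = 0.94), which read 3856.4 to 4859.4, and the sterol methyltransferase gene Smt1-1 (r = 0.93). Each of these coefficients describes 12 arrays that share lines.

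The spread between the lines of a cultivar at the same time was measured as a residual SD. It was 1.58 for LEA19, 0.92 and 0.80 for the RAB21 probe sets, 0.75 for RAB16B, 0.60 for Emp1, 0.39 for RAB16C and 0.31 for Dip1, on the log2 scale. The median over all probe sets tested was 0.12. LEA19 stood above 99.9% of all probe sets and Dip1 above 96.0%. The dim RAB16D and the dim Dip1 probe set stood at 0.10 and 0.11, with 39.2% and 41.3% of all probe sets below them. RAB25, also dim on all arrays, stood at 0.24, above 91.3% of all probe sets and 92.4% of those nearest in mean level. Set against the probe sets nearest in mean level, LEA19 stood above 99.8%, the RAB21 probe sets above 99.5% and 99.6%, and Dip1 above 95.4%. Lines here include the control or wild type beside the changed genotypes, so this SD holds genotype as well as other differences between samples and arrays. With such spread the SE of a cold difference over 6 lines was 0.72 for LEA19 and 0.42 for RAB21, against 0.14 for Dip1.

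**Figure D4:**
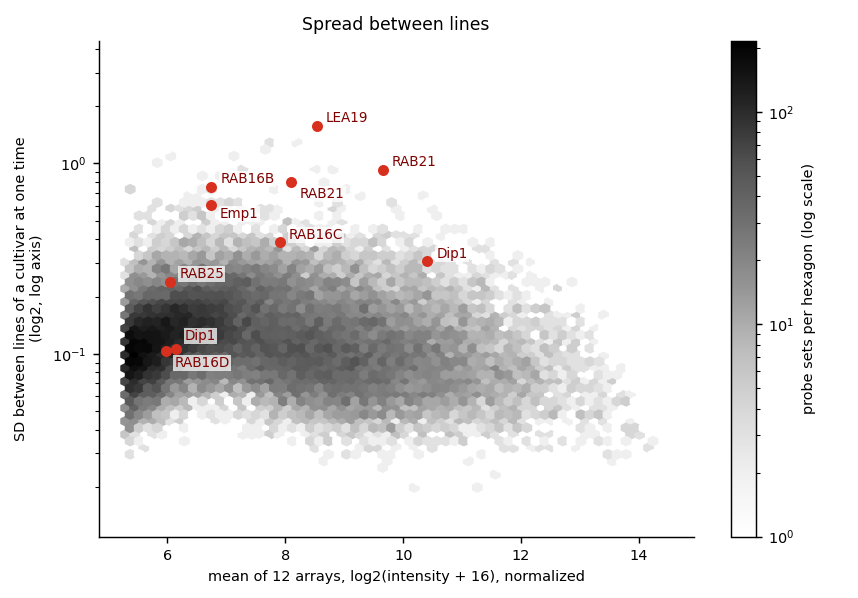
Residual SD between the lines of a cultivar at one time (log axis, log2 units) against the mean level over 12 arrays, for 34355 probe sets (grey hexagons) and the 10 member probe sets tested (red). LEA19, RAB21, RAB16B and Emp1 lay near the upper edge of the cloud, and RAB16D and the dim Dip1 probe set in its middle. RAB25, dim on all arrays, had a larger SD than 91.3% of all probe sets.

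The second question is which members differed between the OsMYB30 overexpression lines and the ZH11 control, and LEA19 was the one called. Averaged over both times, 4 arrays of 2 lines were set against 2 arrays of 1 control line. LEA19 was at least 6.32-fold higher in the overexpression lines with dim readings set to 73.9 (fitted log2 difference 3.35, SE 0.62, adjusted p = 0.0306 in limma). It was higher on 4 of 4 arrays. This fit takes the 2 times of a line as independent. With 1 control line, OsMYB30, the transgene as such and other traits of that line cannot be told apart. Of the 10 member probe sets 1 was called, against 4.06% of all. The call was not kept with line as a block (adjusted p = 0.0876), with robust eBayes (0.105) or without the array after cold of line 2 (0.10) or line 28 (0.0634), at fitted differences of 3.34 to 3.36 in these runs. Over all alternatives the adjusted p lay between 0.0122 and 0.105. Before cold the difference was at least 7.28-fold and after cold at least 5.49-fold, and neither passed alone (adjusted p = 0.0893 and 0.289 in limma). At each of these times 0 of 10 member probe sets were called, against 0.571% and 0.311% of all. In limma 1 had an unadjusted p below 0.05, LEA19 both times, beside 7256 and 3485 of all 34355 probe sets tested.

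No other member was called in the overexpression lines. RAB21 had a difference of 0.54 (SE 0.69, adjusted p = 0.674 in limma) as a mean of both times, with line 28 above the control at both times and line 2 below it. RAB16B had 0.25 (SE 0.58, adjusted p = 0.828), Emp1 0.26 (SE 0.34, adjusted p = 0.682) and Dip1 -0.41 (SE 0.19, adjusted p = 0.227). Dip1 was below the control on 4 of 4 arrays. RAB16C had -0.00 (SE 0.33). RAB25, dim on all arrays, had an unadjusted p below 0.05 (0.39, SE 0.15, adjusted p = 0.148), and without the array of line 28 before cold it was called (0.52, adjusted p = 0.0458). As a mean of both times 8511 of all 34355 probe sets tested had an unadjusted p below 0.05 in limma. The overexpression effect on the cold response was called for 0 of 10 member probe sets by limma and for 0% of all. For that effect 0 members had an unadjusted p below 0.05, beside 1401 of all probe sets tested.

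The third comparison sets the mutants against the Huayang wild type, and no member was called. Averaged over the times, again with 4 arrays against 2, differences ranged from -0.44 (SE 0.34) for Emp1 to 0.30 (SE 0.69) for RAB21, and LEA19 had 0.21 (SE 0.62). Of all probe sets 0.0262% were called there, 0.00291% before cold and 0.0204% after, and 0% for the mutant effect on the cold response. At an unadjusted p below 0.05 limma gave 0 of 10 members as a mean of both times, 0 before cold, 1 after cold and 2 for the mutant effect on the cold response. The same level was passed by 4310, 1736, 3271 and 1006 of all 34355 probe sets tested, in that order. With 1 wild type array a time, and the reporter reading noted above, these counts do not show that the members were alike. After cold LEA19 had 0.94 (SE 0.87) and RAB21 1.22 (SE 0.98), where mutant line 1 was far above the wild type and mutant line 2 stood near it.

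**Figure D5:**
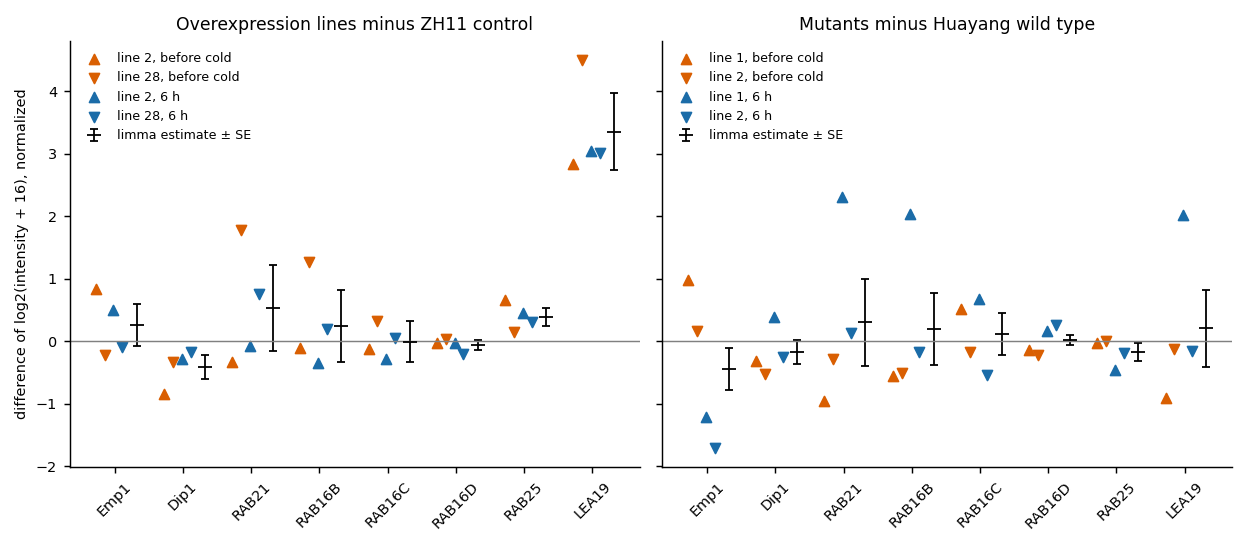
Differences of normalized log2(intensity + 16) between each overexpression line and the ZH11 control (left) and each mutant and the Huayang wild type (right), before cold (orange) and after 6 h (blue), with the limma estimate for the mean of both times and its SE. LEA19 was above the control in both lines at both times, and in the mutants the points of RAB21, RAB16B, LEA19 and Emp1 spread widely around 0.

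Regulators of the same pathway were read from lists of published names, many of which could not be used. On the abscisic acid signalling list 20 names fitted no single gene, and on the water-stress and cold-stress list 33. On the list of abscisic acid synthesis and breakdown 7 names fitted no single gene and 3 had no probe set. The 2 used are both of breakdown, so synthesis was not read. Of 8 DREB genes 7 were tested and 6 rose over the 6 lines with cold, with 0 lower, where 35.1% of all probe sets tested were called. DREB1B, with a lowest reading of 55.8, rose 92.2-fold (log2 difference 6.53, SE 0.09), or 87.5-fold with dim readings set to 73.9. Set in the same way, DREB1A rose at least 67.0-fold and DREB1G at least 16.4-fold. DREB1C, which read 33.4 to 79.3, was called at a level where its size is not established. Of 2 genes of abscisic acid breakdown, ABA8OX1 rose 38.9-fold (log2 difference 5.28, SE 0.08), or 38.1-fold with dim readings set to 73.9. ABA8OX2 fell, with a log2 difference of -0.42 (SE 0.07). Their products hydroxylate and so remove the hormone.

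Among 19 genes of abscisic acid signalling 2 were higher and 7 lower over the 6 lines, against 35.1% of all called, with a median of -0.12 beside 0.01 for all probe sets. The phosphatase gene PP2C68 fell at least 1.86-fold, the receptor gene PYL5 had a log2 difference of -0.44 (SE 0.06) and the kinase gene SAPK2 of 0.69 (SE 0.03), all called. Of 5 further water-stress and cold-stress genes 1 was higher and 2 lower, against the same 35.1% of all. The membrane protein genes LTI6A and LTI6B were called at -0.24 (SE 0.05) and 0.21 (SE 0.04), and the proline synthesis gene P5CS2, which averaged in the dim range after cold, at a fitted -0.26 (SE 0.09), or -0.14 with dim readings set to 73.9.

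Averaged over both times, 1 of 19 signalling genes and 1 of 7 DREB genes tested were called in the overexpression lines, and 0 of the other lists. Of all probe sets tested 4.06% were called in this comparison. The kinase gene SAPK9 was higher by 0.52 (SE 0.11, adjusted p = 0.0420 in limma) and DREB1G by 0.60 (SE 0.11, adjusted p = 0.0306), or 0.37 with dim readings set to 73.9. Neither passed with line as a block (adjusted p = 0.0965 and 0.0644 in limma). In the mutants none of the 4 lists had a called gene as a mean of both times, where 0.0262% of all probe sets tested were called. Such a count does not show that these genes were alike in mutants and wild type.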

How the data were processed

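Total RNA of shoots and leaves was labelled with biotin and hybridised to GeneChip arrays, 1 sample an array. The values are linear probe set intensities deposited by the authors in 1 table, and how probes were summarised, scaled or normalized is not given in the sources used here. The largest difference between arrays at a quartile of the log2 values was 0.24, and scan batches are not given either.

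The 123 Affymetrix control probe sets were left out. Intensities were transformed as log2(intensity + 16) and quantile normalized, and probe sets with a mean level below the 40th percentile were not tested. R 4.3.3 and limma 3.58.1 (lmFit, eBayes with trend) fitted cultivar plus time for cold over the 6 lines, 4 cultivar and time means for cold within and differences between cultivars, and 8 group means, with 4 residual degrees of freedom, for genotype. The last takes each single control to have the spread seen between the lines of the other genotypes. P-values were adjusted by Benjamini and Hochberg over 34355 probe sets. Fits were tested on simulated data.

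Of the probe sets, 22436 had 1 gene in the platform annotation, 95 several and 34727 none, and symbols were updated through RefSeq. Where a group averaged at or below 73.9, readings below it were set to 73.9 and the fold written as "at least". All members are named, and the genes most like a member are the 2 with the highest Pearson r among 2212 genes with a published name. Members and lists were chosen with earlier results of these data known. Samples with the same line number before and after cold deviated together in the overexpression lines (r = 0.52) and the mutants (r = 0.43). With 2 lines each this does not establish pairing, and the fit with line as a block was run as an alternative. The other alternatives changed the normalization, filter, pseudocount, eBayes settings, arrays in the fit, model and probe sets, or left out 1 array.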

Additional observations from a re-analysis of the deposited data

Results flagged for a closer look

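For 3 members both mutants lay on one side of the Huayang wild type before cold and on the other side after cold. For Emp1 they were above it before and below it after, a fitted change of -2.03 in the log2 difference, with both mutants dim after cold. For RAB21 (1.84) and RAB16D (0.39, dim on all arrays) they were below it before and above it after. The test of the change itself gave an adjusted p of 1.00 in limma for each of these, so none is established, and the second RAB21 probe set did not show the crossing. With 1 wild type array at each time, 1 wild type reading enters every difference at that time. No group held the 4 arrays needed to look for outlying samples.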

How the results depend on the processing

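Of 3118 member values recomputed under alternatives, 2935 kept direction and side of the threshold, 15 lost and 9 gained a call, 1 reversed and 158 uncalled values took the other sign. The bright Dip1 probe set kept its call over all lines in 24 of 24, and Emp1 in the Huayang lines in 25 of 25. With line as a replicate block, called members went from 1 to 2 with cold over all lines and in the ZH11 lines, and from 1 to 2 between cultivars before cold. They went from 1 to 0 in the overexpression lines (LEA19, adjusted p = 0.0876 in limma). The block changed no other member's call. Of all 34355 probe sets tested, calls with the block went from 12044 to 16056 with cold over all lines. They went from 6874 to 12060 in the ZH11 lines, from 1806 to 1944 between cultivars before cold, and from 1395 to 425 in the overexpression lines. Averaging a gene's probe sets left 0 called in the ZH11 lines (Dip1 0.18, adjusted p = 0.219) and 1 in the Huayang lines (Dip1 0.26, adjusted p = 0.0993), and turned the dim Dip1 probe set that was tested from -0.14 to 0.22 (adjusted p = 0.0242), since it then holds the bright probe set. With 8 group means 2 were called with cold over all lines, as Emp1 passed (-0.92, adjusted p = 0.0135), and 0 between cultivars after cold, as on values as deposited and with median centring. Robust eBayes left 0 in the overexpression lines. Leaving out 1 array gave 1 to 2 called with cold over all lines, 2 in the Huayang lines, 1 to 2 between cultivars before cold, 0 to 1 after, and 0 to 2 in the overexpression lines. Calls over all probe sets in the overexpression lines averaged over time were 1395 (from 301 without line 2 after cold to 1789; 425 with the block), and 196 (56 to 621) before and 107 (34 to 143) after cold. For cold within ZH11 and Huayang they were 6874 and 6621, and 12060 and 10892 with the block; for the cultivar difference 35 (13 to 198), between cultivars 1806 (1048 to 2546) before and 3640 (2305 to 4799) after cold. In the mutants they were 9 (4 to 30) averaged, 1 (0 to 3) before and 7 (4 to 84) after cold, and 0 to 1 for either genotype effect on cold. Causes were not tested. Dim readings limit RAB16D, RAB25 and 2 Dip1 probe sets on all arrays.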
